A study of Mus musculus with 4 samples.

Results

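Interferon-stimulated effector genes carry out the antiviral response that follows detection of foreign nucleic acid. Type I interferon binds a receptor made of IFNAR1 and IFNAR2, and JAK kinases then activate a transcription factor complex that includes STAT2 and IRF9 and binds a DNA element called the interferon-stimulated response element (ISRE) in the promoters of the target genes. The proteins made from these genes degrade or sequester viral RNA, modify proteins with the ubiquitin-like ISG15, trap virions at the membrane and amplify the signal. Fibroblasts are able to make and to answer type I interferon, and tonic signalling keeps many of these genes detectable without infection.

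The genes described here are 41 mouse genes listed by name as effectors of this response and matched by symbol to 62 oligonucleotide probes among 55681 on the array, which represent 34964 named genes in all. The samples were mouse embryonic fibroblasts from male E13.5 embryos of an Oct4-EGFP transgenic line (OE-MEFs), whose EGFP is driven by Oct4 regulatory sequence and reports reprogramming. The methods state that the line was maintained on C57BL/6 and that cells of several embryos were pooled. All 4 samples were infected with retroviruses carrying Oct4, Sox2 and Klf4 (OSK) and were sampled at 8 days postinfection (dpi). In 2 of them AKT-MER was added (OSKA), a myristoylated AKT kinase fused to a modified estrogen receptor that is activated by 4-hydroxytamoxifen (4OHT). 4OHT or its ethanol vehicle was given from 3 dpi, and the groups were OSK − 4OHT, OSK + 4OHT, OSKA − 4OHT and OSKA + 4OHT. Each group was 1 single-colour array of bulk RNA, so every difference below compares 2 arrays without a replicate, no test was possible and no p-value is given. In such bulk RNA, a change in the number of cells of a type and a change in RNA per cell cannot be told apart.

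A level is the log2 processed signal of the probe minus the log2 of that array's 75th percentile, and a gene is represented by its probe with the highest mean level. A difference is a subtraction of levels between 2 arrays, in log2 units, and it was taken only if both arrays flagged the probe as well above background. The error printed with some differences is the one that the scanner software propagates for the spots, with a median of 0.20 log2 units over the 39 measured genes. It covers reading of the spots only and leaves out the variation between cultures. A gene is called at least 2-fold higher or lower from the size of the difference alone.

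On each array, 52.4% to 55.4% of the spots that were not controls were well above background. The AKT-MER label held, since the probe for the estrogen receptor gene Esr1 had levels of 3.11 and 3.32 on the OSKA arrays whereas on the OSK arrays its signal did not clear the background flag. The free-text description of OSKA + 4OHT states that AKT was not active, against its own title and the design text, and the title was followed. All 10 fibroblast markers, such as Col1a1 and Pdgfrb, were well above background on all arrays. Their median difference was 0.26 between OSKA − 4OHT and OSK − 4OHT, with 8 of 10 higher, 0.08 with 4OHT in OSKA cells, 0.00 with 4OHT in OSK cells and 0.39 between OSKA + 4OHT and OSK + 4OHT, and their part in the differences described below was not tested. All 13 macrophage and leukocyte markers found on the array were as well, with levels of 5.91, 6.51, 6.50 and 6.33 for the macrophage receptor gene Csf1r in OSK − 4OHT, OSK + 4OHT, OSKA − 4OHT and OSKA + 4OHT. In the same order, the summed linear level of these 13 markers was 255, 369, 363 and 330 times the 75th percentile. The 4 measured endothelial, 6 measured epithelial and 7 measured plasmacytoid dendritic, T, B and NK cell markers had median differences of -0.03, -0.41 and 0.04 between OSKA − 4OHT and OSK − 4OHT. With 4OHT in OSKA cells these were -0.22, 0.24 and 0.01, with 3 of the 6 epithelial markers higher (Krt14 at 1.33, Krt18 at 0.86 and Krt8 at 0.56) and 3 lower (Epcam at -0.45, Cdh1 at -0.14 and Trp63 at -0.08). Between OSKA + 4OHT and OSK + 4OHT the 3 medians were -0.50, -0.17 and -0.18. Siglech, a marker of plasmacytoid dendritic cells, which are known for making type I interferon, had levels of 7.03, 6.93, 6.98 and 6.75. The lymphocyte markers Cd3d, Cd8a, Ms4a1, Ncr1 and Klrb1c stayed near background on all 4, whereas 7 of the 13 genes of that list, with Siglech, Cd3e, Cd4, Cd79a and Nkg7 among them, were well above background on all 4.

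The ISRE is the sequence through which most of these genes answer interferon, so stretches that hold its core are shown for 8 of the genes described below. The core was searched for as GAAA, any 2 bases and GAAA on both strands of RefSeq promoters (GRCm38.p6, 250 bases before to 50 after the annotated start site). Each line gives 60 bases on the strand of the gene, 5′ to 3′, upstream of the start site, with every complete core in capitals. On the other strand the core reads TTTC, any 2 bases and TTTC.
Rsad2, chr12:26456538-26456597, minus strand: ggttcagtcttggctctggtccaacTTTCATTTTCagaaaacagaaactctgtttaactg
Ifit1, chr19:34640779-34640838, plus strand: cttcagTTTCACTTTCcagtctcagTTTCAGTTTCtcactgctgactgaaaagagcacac
Ifit3, chr19:34583382-34583441, plus strand: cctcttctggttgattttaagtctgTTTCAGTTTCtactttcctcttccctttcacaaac
Isg15, chr4:156200850-156200909, minus strand: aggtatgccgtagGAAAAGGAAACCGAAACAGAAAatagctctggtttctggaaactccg
Oas1a, chr5:120907526-120907585, minus strand: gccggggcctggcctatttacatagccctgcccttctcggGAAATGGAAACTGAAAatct
Gbp3, chr3:142559980-142560039, plus strand: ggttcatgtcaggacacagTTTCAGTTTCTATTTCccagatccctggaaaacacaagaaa
Irgm1, chr11:48871421-48871480, minus strand: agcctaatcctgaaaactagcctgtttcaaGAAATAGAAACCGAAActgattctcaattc
Trim30a, chr7:104465195-104465254, minus strand: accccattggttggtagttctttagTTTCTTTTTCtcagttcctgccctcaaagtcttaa
Isg15 holds 3 overlapping cores, Oas1a, Gbp3 and Irgm1 hold 2 overlapping cores each, and Ifit1 holds 2 cores that are apart.

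Promoters were listed for 30 of the 41 genes. The ISRE core was present in 18 of their 38 promoters (47.4%) and in 3.44% of all 32851 promoters, and 17 of the 30 genes had it. The core of the gamma-activated site (GAS), an element of genes that answer interferon-gamma, was searched for as TTC, any 3 bases and GAA on both strands. It was present in 11 of the 38 promoters (28.9%) and in 8.30% of all promoters. Oasl1, Oasl2 and Ifi44, whose levels differed strongly between the arrays below, had neither core in these windows, which says only that these letters are absent there. The letters of a core are a description and do not show binding.

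**Figure D1:**
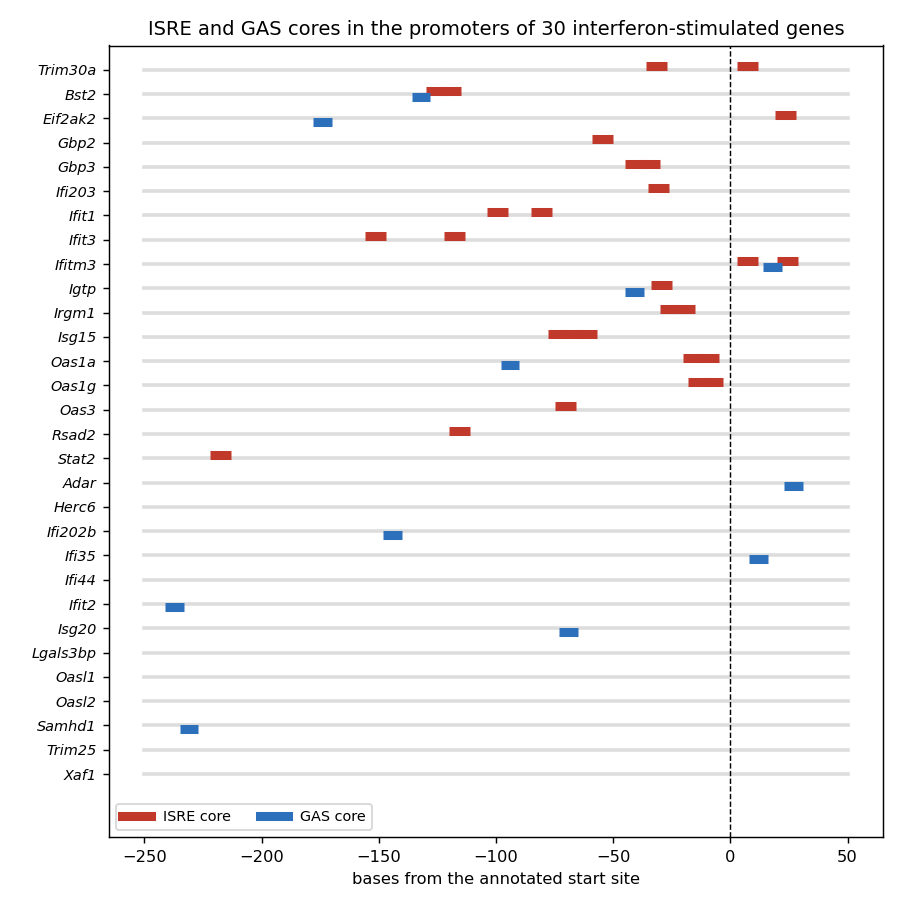
Positions of the ISRE core (red) and the GAS core (blue), in bases from the annotated start site, in the RefSeq promoters of 30 genes; each grey line is the window searched, and cores of a gene with several promoters are drawn on 1 line, each from its own start site. The 17 genes at the top hold an ISRE core and the 13 below do not.

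The comparison of OSKA − 4OHT with OSK − 4OHT asks how these genes differed when AKT-MER was present but its ligand was withheld. Of the 41 genes, 39 were well above background on all 4 arrays, and 36 of these 39 were higher in OSKA − 4OHT, against 47.0% of all 20248 genes measured in both. The median difference was 0.67 (1.59-fold), against -0.02 over all these genes. 8 of the 39 genes were at least 2-fold higher, whereas 1.09% of all measured genes were. They were Ifi202b, Ifit1, Mx1, Ifit3, Rsad2, Ifi44, Oasl1 and Ifi27l2a. None of the 39 was at least 2-fold lower, against 0.928% of all genes. With normexp background correction and quantile normalization, 4 of the 39 genes were at least 2-fold higher, against 0.168% of all genes, and Rsad2, Mx1, Oasl1 and Ifi44 were under 2-fold, at 0.54, 0.75, 0.80 and 0.67.

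The macrophage and leukocyte markers were also higher in OSKA − 4OHT than in OSK − 4OHT, in 12 of 13 markers and by a median of 0.59, and their part in the difference of the interferon-stimulated genes was not tested. They were higher than in OSK − 4OHT by a median of 0.60 in OSK + 4OHT as well, a comparison that shares the OSK − 4OHT array. These markers differed by a median of -0.02 between OSKA − 4OHT and OSK + 4OHT, with a range from -0.13 to 0.28. Against OSK + 4OHT, a baseline chosen after the data had been seen, 36 of the 39 interferon-stimulated genes were higher in OSKA − 4OHT, against 45.8% of all genes. The median difference was 0.49, and 7 genes were at least 2-fold higher, against 0.332% of all genes. Those 7 were Mx1, Ifit1, Rsad2, Ifi44, Oasl1, Oasl2 and Usp18. Ifi202b, Ifi27l2a and Ifit3 were under 2-fold with this baseline, at 0.70, 0.49 and 0.91. This baseline also differs from OSKA − 4OHT in 4OHT.

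The comparison of OSKA + 4OHT with OSKA − 4OHT asks what followed when the ligand was added to cells that already carried AKT-MER. Of the 39 genes, 35 were higher in OSKA + 4OHT, against 45.2% of all genes. The median difference was 0.52 (1.44-fold), against -0.03 over all genes. 7 genes were at least 2-fold higher, whereas 2.01% of all 20363 measured genes were. They were Rsad2, Oasl1, Mx1, Oasl2, Ifit1, Isg15 and Gbp3. None was at least 2-fold lower, against 0.899% of all genes. The macrophage and leukocyte markers had a median difference of -0.17 here, and 4 of the 13 were higher.

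The ligand without the fusion protein was examined by comparing OSK + 4OHT with OSK − 4OHT. The median difference of the 39 genes was 0.01, and 20 of them were higher, against 49.4% of all genes. In 31 the difference was no more than the error of the software. Over all genes the 25th and 75th percentiles were -0.15 and 0.15, inside the median error of 0.20, so small differences were not particular to these genes. Only Ifi202b was at least 2-fold higher, against 0.617% of all genes, and none was at least 2-fold lower, against 0.276%. Scaling to the spike-in probes moved the median of all genes in this comparison to 0.14, and 34 of the 39 genes then lay above 0 with a median of 0.16, which is 0.02 above that of all genes. The macrophage and leukocyte markers had a median of 0.60 here, with a range from -0.30 to 0.91. The highest of the 39 genes were Ifi202b at 1.46, Gbp6 at 0.62, Ifi27l2a at 0.57, Ifit3 at 0.43 and Trim30a at 0.42, while 19 were lower. How these genes relate to the markers was not tested.

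Between OSKA + 4OHT and OSK + 4OHT, the arrays with and without AKT-MER in the presence of its ligand, the median difference of the 39 genes was 1.04 (2.06-fold). 35 of the 39 were higher, against 42.9% of all genes, and 21 were at least 2-fold higher, against 1.92%. The macrophage and leukocyte markers had a median of -0.19 here. The difference made by 4OHT in OSKA cells exceeded that in OSK cells by a median of 0.42, and by at least 2-fold for 8 genes, against 2.61% of all genes. Those 8 were Rsad2, Mx1, Oasl1, Oasl2, Gbp3, Isg15, Ifit1 and Rtp4. For Ifi202b and Gbp6 it was lower by at least 2-fold, at -1.45 and -1.21, against 2.66% of all genes. At a threshold of 1.5-fold, 23 of the 39 genes were higher with AKT-MER, against 5.67% of all genes, and 18 were higher with 4OHT in OSKA cells, against 5.06%, while 1, Gbp6, was lower, against 4.64%. With 4OHT in OSK cells, 2 of the 39 were higher by this measure, a share near the 4.35% of all genes, and between OSKA + 4OHT and OSK + 4OHT 32 were, against 5.46%.

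**Figure D2:**
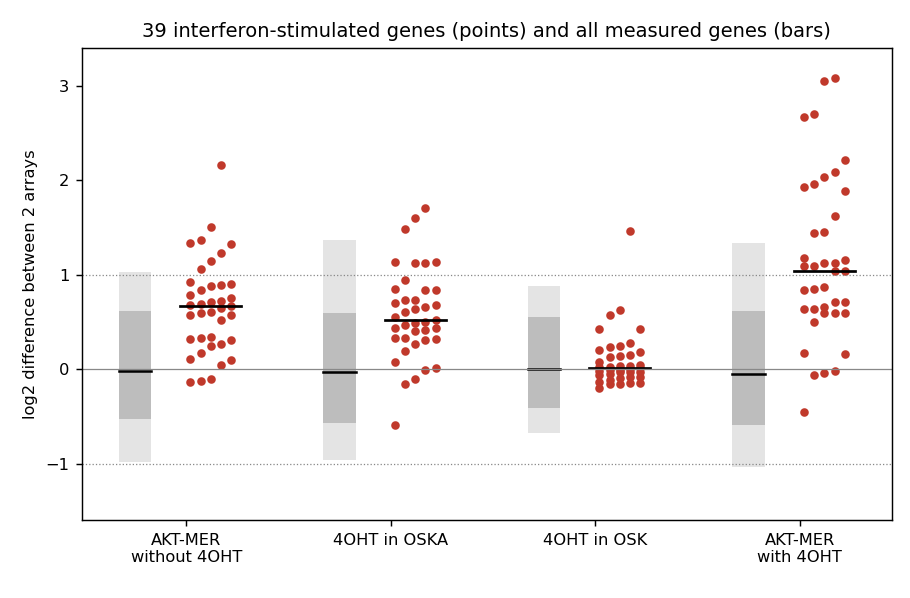
Log2 differences between 2 arrays of 39 interferon-stimulated genes (red points, spread sideways for legibility, black line at the median) beside all measured genes (dark grey from the 5th to the 95th percentile, light grey from the 1st to the 99th, black line at the median); dotted lines mark 2-fold. The medians of the 39 genes were 0.67, 0.52, 0.01 and 1.04 from left to right.

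Gene by gene, 32 of the 39 were higher at both steps, with AKT-MER and again with 4OHT, against 19.2% of all 19843 genes measured at both. The 2 steps share the OSKA − 4OHT array with opposite sign, so its error lowers the one where it raises the other, and their values are given side by side only. 4 genes were at least 2-fold higher at both steps, namely Rsad2, Mx1, Oasl1 and Ifit1, against 0.0504% of all genes measured at both. With normexp and quantile normalization only Ifit1 was, at 1.16 and 1.01. Ifi202b, Ifit3, Ifi44 and Ifi27l2a reached 2-fold with AKT-MER only, whereas Oasl2, Isg15 and Gbp3 reached it with 4OHT only. The step with AKT-MER was the larger in 19 genes and the step with 4OHT in 20. In 28 genes the steps differed by no more than the error of the software for that difference, which had a median of 0.35. The share of all genes within this error was not computed. The AKT-MER step was larger beyond this error in Ifi202b, Gbp6, Ifit3, Isg20, Ifi27l2a, Ifi44 and Ifit1, and the 4OHT step in Herc6, Oasl1, Gbp3 and Parp9. These lists follow the brightest probe of each gene. On a second probe the AKT-MER step was larger beyond the error in Herc6 (0.67 against 0.12) and Ifi203 (1.01 against 0.26). On the second probe of Irgm1 the 4OHT step was larger beyond it (0.52 against 0.08). The steps on the second probe of Gbp6, 0.38 and 0.75, differed by less than it. OSKA + 4OHT had the highest of the 4 levels in 34 of the 39 genes, and this array was the highest for 27.3% of all 19599 genes measured on all 4. Both OSKA arrays lay above both OSK arrays in 33 of the 39, against 16.2% of all these genes.

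**Figure D3:**
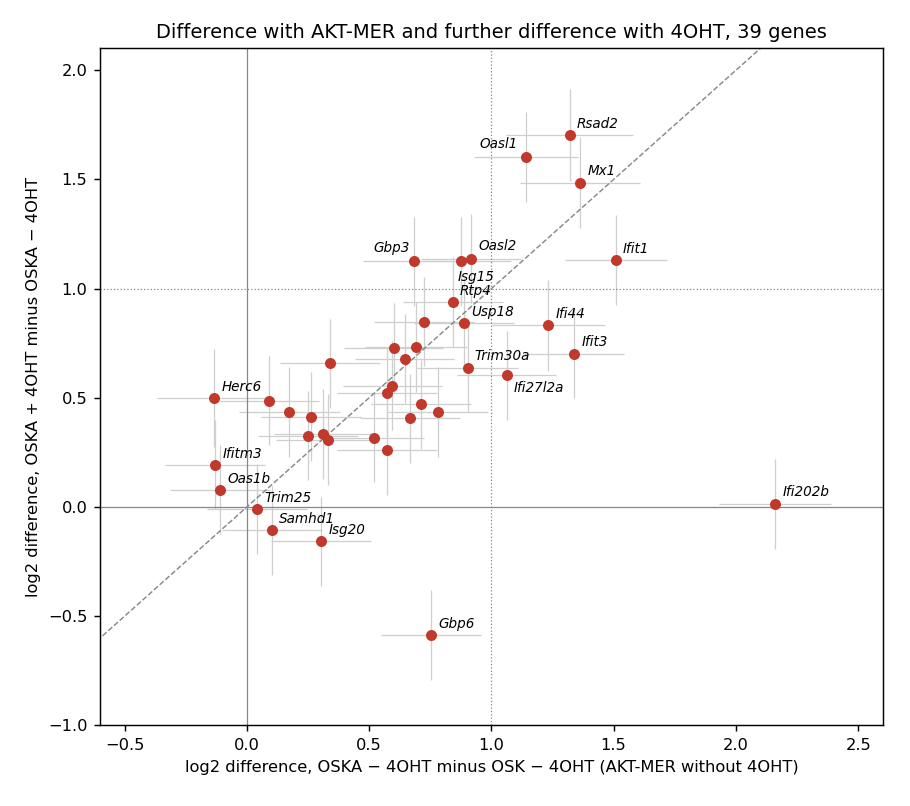
Each point is 1 of 39 genes, with the log2 difference of OSKA − 4OHT over OSK − 4OHT on the x axis and that of OSKA + 4OHT over OSKA − 4OHT on the y axis; bars are the scanner software's error, the dashed line marks equal differences and the dotted lines 2-fold. Rsad2, Mx1, Oasl1 and Ifit1 lie past both dotted lines, Ifi202b lies at 2.16 and 0.02, and Gbp6 at 0.75 and -0.59.

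Levels below are in the order OSK − 4OHT, OSK + 4OHT, OSKA − 4OHT and OSKA + 4OHT, and positions of probes are those of the array files (mm9). Levels of different probes are not compared with each other. Rsad2 encodes viperin, a radical SAM enzyme that makes a chain-terminating nucleotide, and its probe lies at chr12:27127859-27127918. Its levels were -3.24, -3.30, -1.92 and -0.22. The OSK arrays were alike and each step above them was larger than 2-fold, with differences of 1.32 ± 0.26 and 1.70 ± 0.21 (software error) and an 8.14-fold higher signal in OSKA + 4OHT than in OSK − 4OHT. With normexp and quantile normalization the steps were 0.54 and 1.25, so that the first lay under 2-fold. The other genes that act on RNA or nucleotides showed smaller differences. Eif2ak2, which encodes the RNA-activated kinase PKR, differed by 0.52 at the AKT-MER step and by 0.32 at the 4OHT step. The RNA-editing deaminase gene Adar differed by 0.31 and 0.33. Isg20, an exonuclease gene, had levels of 1.03, 1.02, 1.34 and 1.18, so that OSKA − 4OHT was the highest array. Samhd1, whose product hydrolyses deoxynucleotides, had levels of 3.54, 3.56, 3.65 and 3.54, all within the error of the software.

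The OAS family is named for enzymes that sense double-stranded RNA and make 2′-5′-linked oligoadenylates, the activators of RNase L, although not every member makes them, Oasl1 and Oas1b among the exceptions, and all 7 genes lie on chromosome 5. Oasl1, at chr5:115387861-115387920, belongs to a pair of relatives whose products carry ubiquitin-like domains. Its levels were -2.25, -2.21, -1.11 and 0.49. The OSK arrays were again alike, and the steps were 1.14 ± 0.21 and 1.60 ± 0.21. Its neighbour Oasl2, at chr5:115362168-115362227, had levels of 0.81, 0.65, 1.73 and 2.87, with steps of 0.92 and 1.14. The synthetase genes Oas1a and Oas2 showed smaller steps in the same order. Oas1a had levels of 3.26, 3.41, 3.91 and 4.58, and Oas2 had steps of 0.73 and 0.85. Oas1b, known for its part in resistance to flaviviruses, had levels of 4.26, 4.30, 4.16 and 4.23 at its brightest probe, which were alike within the error. Of its 2 other probes, one was as flat, at 2.28, 2.29, 2.29 and 2.33. The dimmest had levels of -1.54, -1.83, -1.45 and -1.19, with both OSKA arrays above both OSK arrays and a difference of 0.64 between OSKA + 4OHT and OSK + 4OHT, so the pattern of Oas1b depends on the probe. Oas1g was not well above background on any of the 4. Oas3 was well above background in OSKA + 4OHT only, at -3.69, which is at least 2.02-fold higher than OSKA − 4OHT and at least 1.80-fold higher than OSK + 4OHT when each dim array is set to the higher of the probe's own level and the lowest level well above background there.

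The IFIT proteins bind viral RNA that lacks host cap methylation, and the genes lie together on chromosome 19. Ifit1, at chr19:34723796-34723855, had levels of -1.73, -1.76, -0.22 and 0.91. Its steps of 1.51 ± 0.21 and 1.13 ± 0.20 were both past 2-fold, and its signal was 6.23-fold higher in OSKA + 4OHT than in OSK − 4OHT. Ifit3, at chr19:34663105-34663164, had levels of -0.40, 0.03, 0.94 and 1.64. Here the AKT-MER step of 1.34 exceeded the 4OHT step of 0.70 by 0.64, and OSK + 4OHT was above OSK − 4OHT by 0.43. Ifit2, within the same cluster, had steps of only 0.17 and 0.43.

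Mx1 and Mx2 encode dynamin-like GTPases that block incoming viruses, and C57BL/6 is among the laboratory strains that carry a non-functional Mx1 allele. Mx1, at chr16:97668644-97668703, had levels of -3.37, -3.57, -2.01 and -0.52. Its steps were 1.36 ± 0.25 and 1.49 ± 0.21, with a 7.20-fold higher signal in OSKA + 4OHT than in OSK − 4OHT. With normexp and quantile normalization the steps were 0.75 and 1.09, so that here too the first lay under 2-fold. Mx2, at chr16:97782327-97782386, had levels of -1.28, -1.31, -0.59 and 0.14, and neither step reached 2-fold.

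ISG15 is conjugated to proteins in the manner of ubiquitin, with HERC6 as its main ligase in the mouse, and USP18 removes it and restrains the interferon receptor. Isg15, at chr4:155573649-155573708, had levels of 3.67, 3.59, 4.55 and 5.67. Its steps were 0.88 and 1.13, and its second probe gave 0.89 and 1.04. Usp18, at chr6:121220874-121220933, had levels of -0.16, -0.32, 0.73 and 1.57, the same order of arrays as Isg15. Herc6 had levels of -2.55, -2.69, -2.68 and -2.18, so that only OSKA + 4OHT stood apart, although its second probe differed by 0.67 at the AKT-MER step and by 0.12 at the 4OHT step. Trim25, a ligase that activates the RNA sensor RIG-I, had levels of 4.90, 4.98, 4.94 and 4.94, which were alike within the error. Its second probe had levels of 4.25, 4.62, 4.62 and 4.79, with OSK − 4OHT 0.37 below both OSK + 4OHT and OSKA − 4OHT. Of the conjugation enzymes not among the 41 genes, the activating enzyme gene Uba7 differed by 0.52 at the AKT-MER step and by -0.02 at the 4OHT step. The conjugating enzyme gene Ube2l6 differed by -0.14 and 0.33.

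The guanylate-binding proteins and immunity-related GTPases attack the membranes around intracellular pathogens and respond to interferon-gamma as well as to type I interferon. Gbp3, at chr3:142236032-142236091, had levels of -0.27, -0.42, 0.41 and 1.53, and the 4OHT step of 1.12 was past 2-fold where the AKT-MER step of 0.68 was not. Igtp was spotted 10 times on each array, with levels of 1.18, 1.09, 1.52 and 2.18 and a standard deviation between spots of 0.06 to 0.07, so the spots of the OSKA arrays did not overlap those of the OSK arrays. Irgm1 had levels of 2.04, 1.98, 2.29 and 2.62. In these 3 genes OSKA + 4OHT was the highest array and OSKA − 4OHT the next, and OSK + 4OHT was the lowest. Gbp2 had steps of 0.57 and 0.52, and Iigp1 had steps of 0.33 and 0.31. The dimmer second probe of Iigp1 was well above background on the OSKA arrays only, with a 4OHT step of 0.88. On that probe OSKA − 4OHT was at least 2.03-fold higher than OSK − 4OHT, and OSKA + 4OHT at least 3.75-fold higher than OSK + 4OHT. The size of the steps of Iigp1 therefore depends on the probe. Gbp6 stood apart, with levels of -0.73, -0.10, 0.03 and -0.56, a step of 0.75 with AKT-MER and of -0.59 with 4OHT. Its dimmer second probe went the other way at the 4OHT step, with levels of -3.53, -3.01, -3.15 and -2.41, so the direction for Gbp6 depends on the probe.

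Among the genes of the cell surface and secreted proteins, Rtp4, which encodes a receptor-trafficking protein at chr16:23613668-23613727, had the largest steps, 0.84 and 0.94. Its levels were 2.35, 2.19, 3.19 and 4.13. Bst2, the gene of tetherin, which holds budding virions at the membrane, had steps of 0.60 and 0.55, and OSK + 4OHT was above OSK − 4OHT by 0.28. Lgals3bp, which encodes a secreted galectin-binding glycoprotein, had steps of 0.60 and 0.73. Ifitm3, whose product blocks fusion of entering viruses, was spotted 10 times and had levels of 6.38, 6.27, 6.25 and 6.44. These 4 levels lay within 0.2 log2 units of each other, with a standard deviation between spots of 0.04 on each array.

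STAT2 is a part of the factor that binds the ISRE. Stat2, at chr10:127729834-127729893, had levels of 1.08, 1.22, 1.79 and 2.26. Trim30a, which encodes a regulator of NF-kB signalling, had levels of -1.10, -0.68, -0.20 and 0.44 and the largest steps of its group, 0.90 and 0.64. Both genes kept the order of the 4 arrays, and OSK + 4OHT was above OSK − 4OHT for both, by 0.14 and 0.42. The PARP genes Parp14 and Parp9, which lie near each other on chromosome 16, differed in where the larger step lay. Parp14 had steps of 0.57 and 0.26, and Parp9 of 0.09 and 0.49. Ifi35 had steps of 0.26 and 0.41.

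The remaining Ifi genes and Xaf1 had the largest AKT-MER step of any gene here. Ifi202b, one of the Ifi200 genes of DNA-binding proteins on chromosome 1, lies at chr1:175892789-175892848 and had levels of -2.77, -1.31, -0.61 and -0.60. The OSK arrays differed by 1.46, the OSKA arrays by 0.02, and the second probe of the gene gave 1.70 and -0.03. It was the only gene of the 39 that was at least 2-fold higher with 4OHT in OSK cells, and with normexp and quantile normalization it was just under 2-fold, at 0.998. Its neighbour Ifi203 had steps of 0.78 and 0.44. Ifi27l2a, the gene of a small interferon-induced membrane protein, had levels of 5.25, 5.82, 6.31 and 6.92. In this gene OSK + 4OHT lay 0.57 above OSK − 4OHT, about as far as OSKA + 4OHT lay above OSKA − 4OHT, at 0.60. Ifi44, at chr3:151394035-151394094, had levels of -2.92, -2.89, -1.69 and -0.86, with alike OSK arrays. Xaf1, which encodes a pro-apoptotic partner of XIAP, had steps of 0.67 and 0.41.

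**Figure D4:**
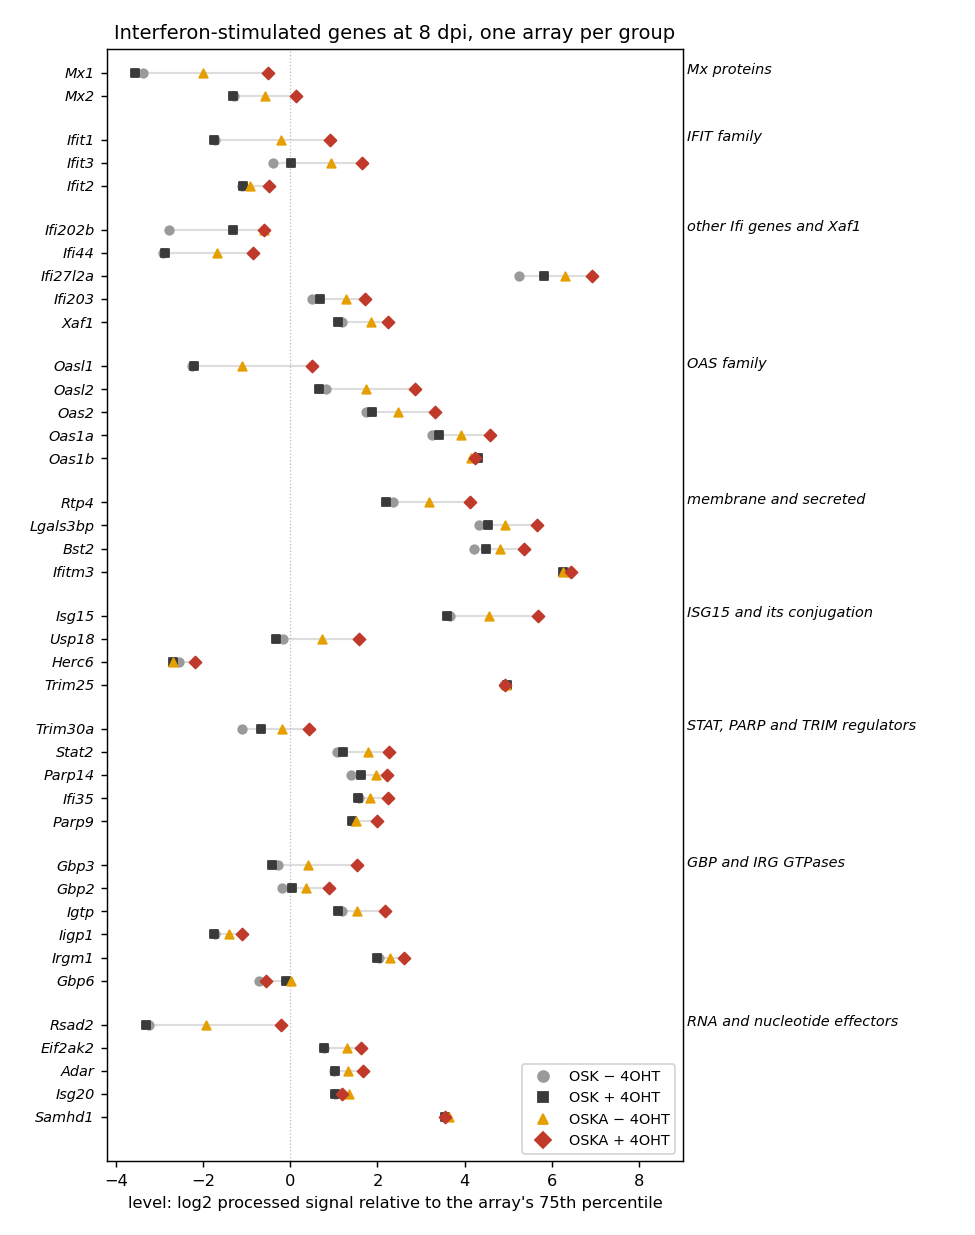
Levels of 39 interferon-stimulated genes (log2 processed signal, scaled by the 75th percentile) on the 4 arrays, 1 array per group, ordered within functional groups by the difference between OSKA + 4OHT and OSK − 4OHT. In 33 genes both OSKA symbols lie to the right of both OSK symbols, and the exceptions are Oas1b, Herc6, Trim25, Ifitm3, Gbp6 and Samhd1.

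By functional group, the median AKT-MER step was 1.34 for the 3 IFIT genes, 1.06 for the 5 other Ifi genes with Xaf1, 1.03 for the 2 Mx genes and 0.73 for the 5 measured OAS genes. It was 0.60 for the 4 membrane and secreted genes, 0.57 for the 5 STAT, PARP and TRIM genes and 0.46 both for the 4 genes of ISG15 and its conjugation and for the 6 GTPases. The 5 RNA and nucleotide effectors had the lowest median, 0.31, although Rsad2 was one of them. The order depends on the baseline. Against OSK + 4OHT the medians in OSKA − 4OHT were 1.15 for Mx, 0.91 for IFIT, 0.70 for the other Ifi genes with Xaf1 and 0.60 for OAS. They were 0.48 for ISG15 and its conjugation, 0.36 for membrane and secreted genes, 0.34 both for the GTPases and for the STAT, PARP and TRIM genes, and 0.32 for the RNA and nucleotide effectors. At the 4OHT step the medians ran from 0.32 for the RNA and nucleotide effectors to 1.11 for the Mx genes. With 4OHT in OSK cells they ran from -0.12 for the Mx genes to 0.18 for the other Ifi genes with Xaf1. The 15 measured genes with an ISRE core in a listed promoter had medians of 0.68 and 0.64 at the 2 steps, and the 13 without it had medians of 0.31 and 0.41. The 11 genes without a listed promoter had medians of 0.73 and 0.60. At least 2-fold higher were 3, 3 and 2 genes of these sets with AKT-MER, against 1.09% of all genes, and 4, 2 and 1 with 4OHT in OSKA cells, against 2.01%.

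Other genes of the pathway were read from lists chosen by function. Of 15 interferon genes on the array, 11 were well above background on at least 1 array. Among the 5 measured at the AKT-MER step and the 6 measured at the 4OHT step, none was at least 2-fold higher, which with so few genes says little beside the 1.09% and 2.01% of all genes. Ifna14 differed by -1.17 at the 4OHT step. Ifnb1, the gene of interferon-beta, was well above background in OSKA − 4OHT only, at -3.52, which is at least 2.22-fold higher than in OSK − 4OHT and at least 2.38-fold higher than in OSKA + 4OHT. Ifna7 went the other way, at -1.69 in OSK − 4OHT, and was at least 9.30-fold lower in OSKA − 4OHT and lower by 2-fold or more in OSK + 4OHT, with a difference of -2.14. Ifnk and Ifna12 were well above background in OSKA − 4OHT only, as were 600 genes in all (1.72% of those on the array). Of the receptor genes, Ifnar1 had levels of 2.56, 2.55, 2.59 and 2.36, and Ifnar2 had levels of 2.67, 2.71, 2.74 and 2.78. Ifnar2 differed by less than the error of the software throughout, Ifnar1 was lowest in OSKA + 4OHT, and the 5 measured receptor genes had medians of 0.32 and -0.24 at the AKT-MER and the 4OHT step. With 4OHT in OSK cells the receptor median was 0.23, and that of OSKA − 4OHT over OSK + 4OHT, the pair with alike macrophage and leukocyte markers, was 0.05. The 8 genes of JAK and STAT signalling had medians of -0.08 and -0.05, with ranges from -0.26 to 0.25 and from -0.44 to 0.93. Between OSKA + 4OHT and OSK + 4OHT 1 of the 8 was at least 2-fold higher, at 1.66, against 1.92% of all genes.

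The interferon regulatory factors, 8 measured genes, had medians of 0.20 and -0.10. Irf7, which amplifies the response, had levels of -2.03, -2.39, -1.21 and -0.31 with steps of 0.83 and 0.90. Irf5 and Irf8 had AKT-MER steps near that of Irf7, at 0.71 and 0.65, but 4OHT steps of -0.28 and -0.30. Both also differed by 0.66 and 0.62 with 4OHT in OSK cells, where Irf7 differed by -0.35. Irf9, the DNA-binding partner of STAT2, had steps of 0.24 and 0.28, and the 4OHT steps of the measured factors other than Irf7 ran from -0.30 to 0.28. The feedback inhibitors, 10 genes, had medians of -0.01 and -0.08, with 4 and 3 higher, against 47.0% and 45.2% of all genes. Socs1 had steps of -0.07 and 0.38, and Socs3 went the other way, with steps of -0.37 and -0.53. Among the nucleic acid sensors, with medians of 0.39 and 0.28 over 11 and 12 genes, the RIG-I gene Ddx58 had steps of 0.32 and 0.54. Ifih1, the gene of MDA5, had steps of 0.39 and 0.50, and Sting1 had steps of -0.01 and -0.08. Past 2-fold were Dhx58, the gene of the RIG-I relative LGP2, at 1.23 with AKT-MER, and Zbp1, a sensor of Z-form nucleic acid, at 1.09 with 4OHT. These were 1 of 11 and 1 of 12 genes, against 1.09% and 2.01% of all genes. With 4OHT in OSK cells Dhx58 differed by 0.51 and Zbp1 by 0.09. Against OSK + 4OHT the sensors' median in OSKA − 4OHT was 0.03, with 6 of 12 higher, a share near the 45.8% of all genes. Tlr3, the endosomal sensor of double-stranded RNA, was well above background on 3 arrays, with a 4OHT step of 0.87.

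A list of 62 further interferon-stimulated genes gave 55 genes measured at the AKT-MER step and 57 at the 4OHT step. Of these, 43 and 48 were higher, with medians of 0.18 and 0.23, and 3 and 4 were at least 2-fold higher, against 1.09% and 2.01% of all genes. Of all genes, 47.0% and 45.2% were higher. Past 2-fold were Cxcl10, Ifit3b and Slfn8 with AKT-MER and Gbp4, Cxcl10, Tgtp2 and Cmpk2 with 4OHT. Against OSK + 4OHT the median in OSKA − 4OHT was 0.11, 41 of 56 genes were higher, and 0 were at least 2-fold higher, a count near the share of 0.332% of all genes. Cxcl10, a chemokine gene, had levels of -1.37, -1.05, -0.28 and 1.06. Cmpk2, a nucleotide kinase gene that lies beside Rsad2, had levels of -2.53, -2.61, -1.93 and -0.78, the order of arrays seen in Rsad2. Ifitm1, which encodes a relative of IFITM3, went the other way, with levels of 6.03, 5.87, 5.27 and 4.58, and was the only gene of the list at least 2-fold lower between OSKA + 4OHT and OSK + 4OHT, against 1.12% of all genes. The class I antigen presentation genes had medians of 0.30 and 0.15 over 17 genes, with steps of 0.27 and 0.15 for B2m, 0.38 and 0.40 for the peptide transporter gene Tap1 and 0.59 and 0.19 for the immunoproteasome gene Psmb8. Class II genes had medians of 0.26 and 0.06 over 6 genes. H2-Eb1 differed by 1.10 at the AKT-MER step and by 0.80 with 4OHT in OSK cells, and H2-Ab1 differed by 1.21 at the 4OHT step, whereas Ciita, their master regulator, was near background throughout. The NF-kB target genes had medians of -0.04 and -0.08 over 20 genes, with 9 and 5 higher, against 47.0% and 45.2% of all genes. None was at least 2-fold higher or lower. With 20 genes this says little beside the 1.09% and 2.01% of all genes higher and the 0.928% and 0.899% lower. The AKT-MER step ran from -0.26 in Nfkbia, the gene of an NF-kB inhibitor, to 0.88 in Tnf, with Il1b at 0.83, Cxcl2 at 0.68 and Icam1 at 0.67. At the 4OHT step these 5 genes had differences of -0.26, -0.72, -0.08, 0.12 and -0.21. With 4OHT in OSK cells, in the same order, they differed by -0.15, 0.73, 0.65, 0.32 and 0.18.

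**Figure D5:**
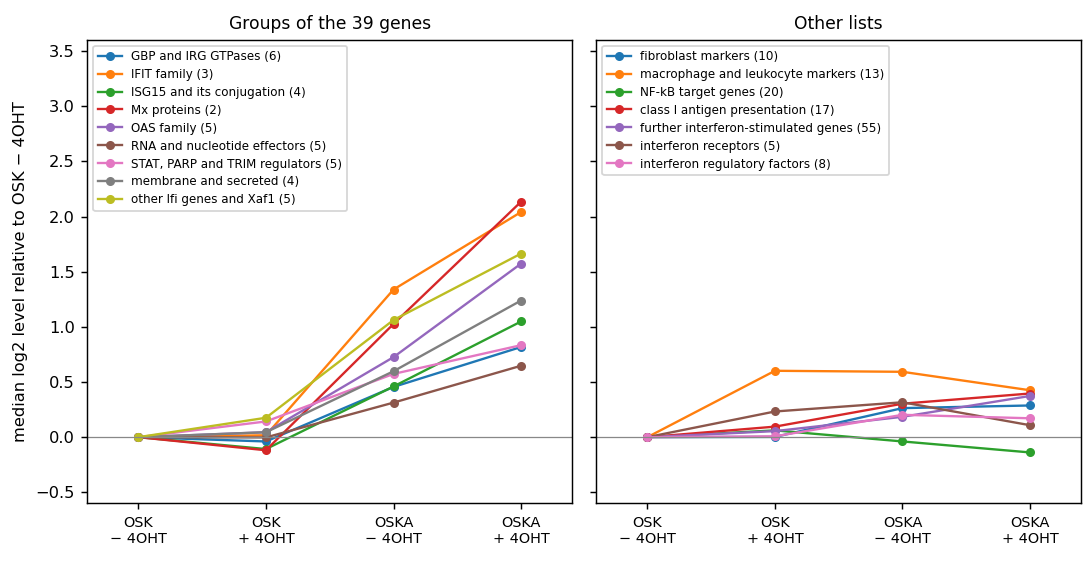
Median log2 level relative to OSK − 4OHT on each of the 4 arrays for functional groups of the interferon-stimulated genes (left) and for other gene lists (right), over genes well above background on all 4 arrays, with the number of genes in brackets; lines join the arrays of a list and imply no time course. The groups on the left lie between -0.12 and 0.18 in OSK + 4OHT and above 0 on both OSKA arrays, whereas the macrophage and leukocyte markers lie at 0.60, 0.59 and 0.43 on the 3 arrays after the first.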

How the data were processed

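The 4 Agilent one-colour arrays analysed were 1 per group. Per the methods, Cy3-labelled cRNA from 100 ng RNA was scanned and read with Feature Extraction (10.7.3.1), and the authors deposited background-subtracted, spatially detrended processed signal intensities, here log2-transformed and scaled to the 75th percentile of spots that were not controls. Spots marked as outliers were left out and spots of 1 probe averaged. RefSeq matched 27509 of 55681 probes, and others kept the name in the files. The series' value table lay between 0.995 and 1.005 times the processed signals and served as an alternative. Python 3.11.15, pandas 2.3.3 and limma 3.58.1 were used, and the steps were checked on simulated data. Alternatives were quantile normalization, spike-in scaling, normexp, other filters on dim probes, averaging of probes, the value table and a 1.5-fold threshold. Without replicates no test was run. Some genes of the lists are not reported here by name. The 41 genes, their groups and the lists were chosen with earlier results of these data known. Named by rule in each group were the genes with the largest step with AKT-MER, the largest step with 4OHT and the highest level in OSKA + 4OHT, every gene lower at a step, not measured on 4 arrays or at least 2-fold higher with 4OHT in OSK cells; the others were named for completeness after their values were seen. Probe levels depend on probe sequence as well as on RNA. Strand and sharing of probes between close relatives, such as the Oas1 genes, were not examined.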

Additional observations from a re-analysis of the deposited data

Results flagged for a closer look

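On its brighter probe, Gbp6 had differences of opposite sign with 4OHT in OSK and in OSKA cells. It was 0.62 log2 units higher in OSK + 4OHT than in OSK − 4OHT, and its difference between OSKA + 4OHT and OSKA − 4OHT was -0.59. Each value is from 1 pair of arrays and exceeded the error of the software, and the difference between them was not tested. The second probe of the gene was higher with 4OHT in both kinds of cells, by 0.53 and 0.75.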

How the results depend on the processing

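The 8 alternatives were applied to the 4 comparisons, and 1 baseline was added after seeing the data. The median differences ran from 0.49 to 0.70 for AKT-MER without 4OHT, 0.47 to 0.55 for 4OHT in OSKA cells, 0.003 to 0.16 for 4OHT in OSK cells and 0.91 to 1.07 for AKT-MER with 4OHT. With normexp and quantile normalization, 4 genes were at least 2-fold higher with AKT-MER (0.168% of all genes) and 0 with 4OHT in OSK cells (0.11%). At a 1.5-fold threshold, 23 genes were higher with AKT-MER (5.67% of all genes), 18 with 4OHT in OSKA cells (5.06%; 1 lower, against 4.64%), 2 with 4OHT in OSK cells (4.35%) and 32 with AKT-MER plus 4OHT (5.46%). Scaling to spike-ins left 15 genes at least 2-fold higher with AKT-MER plus 4OHT (1.49%). Of 638 values of 22 single genes under the other settings, 21 moved by more than the error of the software. Of these, 17 moved with normexp, where 71 stayed, and 4 with the added baseline, where 18 stayed. The filters on dim probes leave these single values as they are and the value table holds nearly the same signals, so their lack of movement was fixed in advance. 0 values changed sign where the difference was at least 2-fold, and the cause was not tested. No paired analysis was possible because each group is 1 array. Dim probes such as those of Oas1g and Oas3 give bounds or nothing, and the lack of replicates limits every value.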
